A study of Mus musculus with 10 samples.

Results

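The comparison concerned outer hair cells (OHCs) of the mouse cochlea at P7, before the onset of hearing, and at about P22, after it, and was made over all genes that passed a filter on low counts. The members were 4 of the 10 libraries of the series: library 15 and library 14 of OHCs (P7), and library m21 and library f22 of OHCs (P22). They were chosen by the sample name that each count file carries, because 4 of the 10 sample records hold the file of another sample. Each library was made from cells picked by hand after dissociation of the cochlea, whose RNA was copied, amplified and sequenced.

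All 4 libraries are labelled as prestin-YFP knock-in OHCs with 1 tagged copy (prestin-YFPYFP/+), which make the *Slc26a5* product fused to a yellow fluorescent protein. For the P7 cells the study's own supplement gives a different line, Prestin-CreERT2 mice with a Cre-dependent tdTomato reporter and tamoxifen in the first days after birth, and this difference in the sources could not be settled. The P22 libraries are named m21 and f22 after their titles, which give day 21 for the first and day 22 for the second. The study's supplement gives ages a day later for these cells. *Eif2s3y*, a gene of the Y chromosome, had 0.134 and 0 CPM (the share of the library's counts, scaled to a fixed total and by trimmed mean of M values, TMM) at P7, 125 CPM in library m21 and 0.169 CPM in library f22, and *Xist*, the RNA of the inactive X chromosome, had 1946, 1736, 0.882 and 841 CPM in the same order. The P7 libraries have numbers near those of the supporting cell (SC) and converted hair cell (cHC) libraries, and the P22 libraries have numbers near those of the inner hair cell (IHC) libraries. Age therefore cannot be told apart from the series of library numbers or, if the supplement is followed, from the mouse line, and male material was present only at P22. The other libraries of the series enter the same fit and are set beside the OHCs below. SCs were from days 26 and 27, cHCs from day 33 and IHCs from days 74 and 75. By the supplement, SCs and cHCs came from Fgfr3-iCreER mice with the tdTomato reporter given tamoxifen, and cHCs also carried Atoh1-HA and Chrna9-EGFP. IHCs came from Pval-Cre mice with that reporter. In those comparisons cell type cannot be told apart from age and line.

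The counts on genes were 15016129 and 37338042 for libraries 15 and 14 and 19483713 and 21365585 for libraries m21 and f22. Of the aligned reads, 35.7% and 37.2% at P7 and 61.8% and 59.6% at P22 lay outside annotated genes. The ribosomal RNA genes of the mitochondrion took 26.8%, 23.9%, 33.5% and 15.9% of the counts on genes, and the TMM factors were 0.993, 0.982, 0.583 and 1.11, so library m21 stood apart from the other 3. It also had the fewest genes with a count (14332, against 15841, 16057 and 16948 in libraries 15, 14 and f22). The part of these differences in the results was not tested, and the main counts are given below without each library. In amplified pools of cells, a change in the number of cells of a type and a change in RNA per cell cannot be told apart.

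OHCs amplify sound. Their lateral wall is packed with prestin, encoded by *Slc26a5*, a motor protein that changes length with voltage, and their hair bundles carry the mechanotransduction channel. Between P7 and hearing onset the bundle, the potassium conductances and the innervation take their mature form: the efferent fibres of the brainstem come to synapse on the OHC through the nicotinic receptor of *Chrna9* and *Chrna10*. The general hair cell genes *Myo6* and *Myo7a* (unconventional myosins) and *Pou4f3* (a transcription factor, TF) were present in all 4 libraries, at 2258 and 2144 CPM at P7 and 2177 and 2658 CPM at P22 for *Myo6*, 407 and 251 CPM at P7 and 333 and 464 CPM at P22 for *Myo7a* and 488 and 543 CPM at P7 and 484 and 559.7 CPM at P22 for *Pou4f3*. So were the OHC genes *Slc26a5*, *Ocm* and *Ikzf2* (values below for the first 2 of these, and 463 and 482 CPM at P7 and 502 and 491 CPM at P22 for *Ikzf2*, a zinc finger TF of OHCs). These markers of the labelled cell type were present at both ages. By either source the cells were picked through a reporter tied to *Slc26a5*, so its RNA is no separate support for their identity. In the SC libraries *Ikzf2* had 39.9 and 296 CPM and *Ocm* 2.71 and 3.16 CPM. The fitted differences of *Myo6*, *Myo7a*, *Pou4f3* and *Ikzf2* lay between 0.02 and 0.28 log2 units, with ages that overlapped for the first 3, and each changed sign under at least 1 other scaling or set of libraries.

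Of 16891 genes tested with edgeR's quasi-likelihood test, 22 were higher in OHCs (P22) (0.130% of those tested) and 71 were lower (0.420%) at a false discovery rate (FDR, Benjamini-Hochberg) under 0.05. These shares are the background for the calls in each gene list below. The spread between libraries was large, with a common dispersion of 1.12, and 2340 genes had an unadjusted p under 0.05. All 93 called genes moved in the same direction in 4 of 4 pairs of libraries. The same libraries chose these genes, so this is no separate support. As a description with no test, the ages stood apart by at least 2 log2 units in every pair, with 2 prior counts on the log2 CPM scale, for 663 genes upward (3.93%) and 1058 downward (6.26%). The genes called were few beside those that stood apart, and another 51 higher and 99 lower genes had an FDR between 0.05 and 0.10. Without library m21 the calls were 6 higher and 16 lower, without library f22 they were 96 and 175, without library 14 they were 11 and 53, and without library 15 they were 14 and 124. By limma-voom, the method of the study, there were 57 and 53 calls and by DESeq2 685 and 955. Over the same 16891 genes, these counts and the 2340 at an unadjusted p under 0.05 are the background for such counts in each gene list below. A list near that background is not a result about its members.

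**Figure D1:**
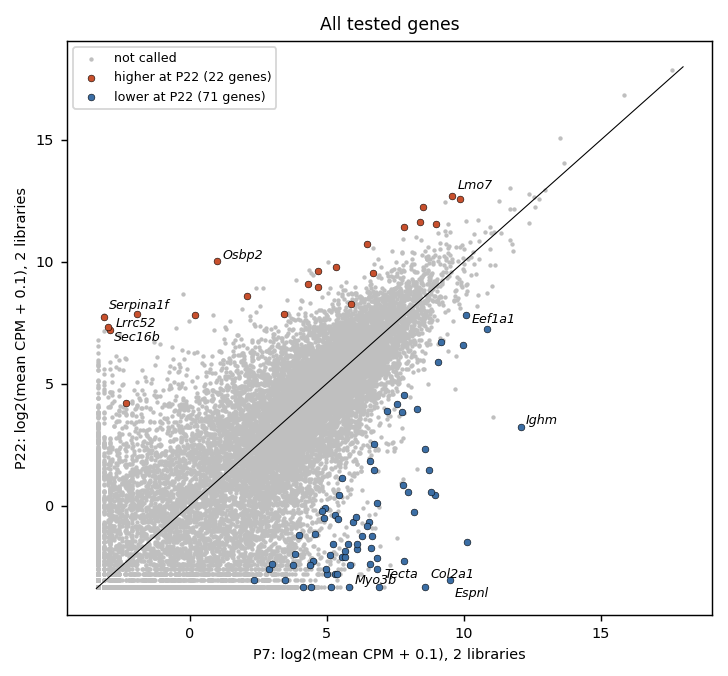
Mean level of each of 16891 tested genes in OHCs at P7 (x axis) and P22 (y axis), as log2 of the mean CPM of 2 libraries plus 0.1. Orange points are the 22 genes called higher at P22 and blue points the 71 called lower, and the line marks equal levels. Several called genes lie near the floor of the axis at one of the ages.

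Among the genes of the prestin and lateral wall list, *Slc26a5* and *Lmo7* were higher at P22 in value and *Lmo7* was called. *Slc26a5* (mm9 chr5:21316473-21371422) had 1061 and 1094 CPM at P7 and 3789 and 2749 CPM at P22. Both P22 libraries lay above both P7 libraries, 3.03-fold by the fit, but the difference was not called (edgeR log2 fold change 1.6 ± 0.59 SE, FDR = 0.275, limma-voom adjusted p = 0.0167, DESeq2 adjusted p = 0.134). *Lmo7* (mm9 chr14:102129145-102349230) encodes a LIM domain protein associated with actin and found at the cuticular plate of hair cells, and it had 825 and 709 CPM at P7 and 7884 and 5485 CPM at P22, an 8.71-fold rise with no overlap (edgeR log2 fold change 3.12 ± 0.5 SE, FDR = 0.0307). The call on *Lmo7* was held without library f22 (edgeR FDR = 0.0159) and without library 15 (FDR = 0.0443) and lost without library m21 (FDR = 0.0791) and without library 14 (FDR = 0.0821). Of the 13 prestin and lateral wall genes tested, 1 was called higher and 0 lower (against 0.130% and 0.420% of all genes), the median log2 fold change was 0.35 (0.096 with genes at 0 at their bound, and -0.19 without library m21) against -0.04 over all genes tested, 7 of the genes lay above 0 and 6 below, and the others included the spectrins and ankyrins of the cortical lattice. The summed CPM of the list was 4260.4 and 4181.5 at P7 and 15116 and 10185 at P22, led by *Slc26a5* and *Lmo7*.

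Among the potassium channel genes, 1 was called. *Lrrc52* encodes a leucine-rich repeat protein that serves as an auxiliary subunit of large-conductance potassium channels. It lies at mm9 chr1:169375806-169396911, and had 0.0671 and 0 CPM at P7 and 227 and 70.5 CPM at P22. With 1 count in the P7 libraries together, the ratio of counts between the ages was 6239 (95% exact interval 1119 to 246470.1) (edgeR FDR = 0.0307). *Lrrc52* was close to absent at P7 and clear in both P22 libraries, and its call was held without library f22 or 15 and lost without library m21 (edgeR FDR = 0.0601) or 14 (FDR = 0.0663). *Kcnma1*, the large-conductance channel itself, had 106 and 25.7 CPM at P7 and 479 and 162 CPM at P22 (edgeR log2 fold change 2.29 ± 0.79 SE, FDR = 0.247). *Kcnn2*, the calcium-activated channel coupled to the efferent receptor, had 117 and 127 CPM at P7 and 228 and 203 CPM at P22 (edgeR log2 fold change 0.82 ± 0.7 SE, FDR = 0.614). *Kcnmb2*, also of this list and chosen after its values were seen, went the other way. It had 59 and 33.1 CPM at P7 and 0.0882 and 0.0421 CPM at P22 (edgeR FDR = 0.0709, limma-voom adjusted p = 0.0425, DESeq2 adjusted p = 7.34e-07). So in this family edgeR called 1 of 20 tested genes, upward, while 4 stood apart upward by 2 log2 units or more (20%, against 3.93% of all genes) and 2 downward (10%, against 6.26%). Limma-voom called 1 higher and 1 lower, and DESeq2 3 higher and 1 lower. The 1 call by edgeR compares with 0.130% of all genes called higher.

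The efferent receptor subunits did not pass the test. *Chrna10* had 446 and 486 CPM at P7 and 1467 and 894 CPM at P22 (edgeR log2 fold change 1.34 ± 0.48 SE, FDR = 0.266), with both P22 libraries above both P7 libraries. *Chrna9* had 131 and 159.7 CPM at P7 and 405 and 134 CPM at P22 (edgeR log2 fold change 0.89 ± 0.62 SE, FDR = 0.518), so library f22 lay inside the P7 range, and the fitted difference became -0.11 log2 units without library m21. *Chrna1*, a muscle-type subunit of the nicotinic receptor, had 146 and 89.4 CPM at P7 and 1.32 and 8.21 CPM at P22, in the opposite direction (edgeR log2 fold change -4.61 ± 1.25 SE, FDR = 0.15, limma-voom adjusted p = 0.189, DESeq2 adjusted p = 0.000809). None of the 14 tested efferent synapse genes was called by edgeR or limma-voom. Of the 14, 6 had an unadjusted edgeR p under 0.05 (against 2340 of 16891 over all genes), and DESeq2 called 2 lower (against 955 of 16891). Their median log2 fold change was 0.77.

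**Figure D2:**
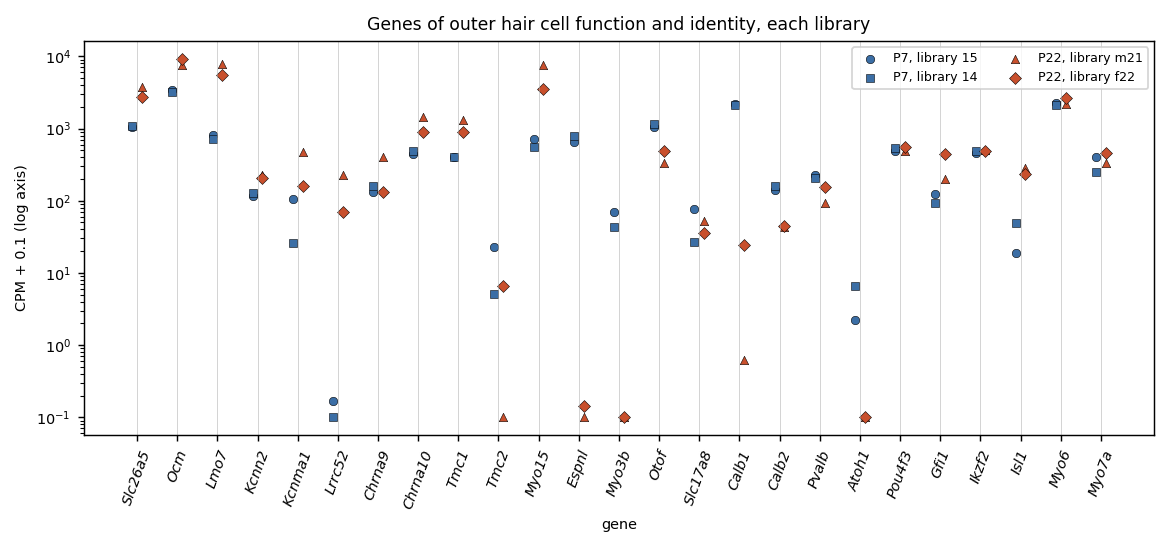
CPM plus 0.1, on a log axis, of genes of OHC function and identity in each of the 4 libraries, with P7 in blue and P22 in orange. *Lmo7* and *Lrrc52* were called higher at P22, *Espnl* and *Myo3b* lower, and the others were not called by edgeR.

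Among the genes called lower were 2 actin-associated genes of the stereocilia, the stiff projections of the hair bundle. *Espnl* (mm9 chr1:93218652-93244880) encodes espin-like, a relative of the actin cross-linker espin, and had 647 and 785 CPM at P7 and 0 and 0.0421 CPM at P22. It was thus abundant in both P7 libraries and had 1 count at P22 in all, a ratio of 26141 (95% exact interval 4692 to 1032545) (edgeR FDR = 0.00225), and the call was held without any 1 of the 4 libraries (FDR from 0.000829 to 0.0122). *Myo3b* (mm9 chr2:69877183-70267255), a class III myosin of stereocilia tips, had 70.5 and 42.9 CPM at P7 and 0 and 0 CPM at P22. No count fell on it in either P22 library, so it was at least 290.0-fold lower against a floor of 3 counts per library (edgeR FDR = 0.0188; without library m21, 0.0526). *Myo3a*, its paralog, had 187 and 129.8 CPM at P7 and 127 and 156 CPM at P22 (edgeR log2 fold change -0.16 ± 0.56 SE, FDR = 0.939), and *Espn* had 131 and 140.4 CPM at P7 and 354 and 314 CPM at P22 (edgeR log2 fold change 1.3 ± 0.66 SE, FDR = 0.404). These 2 relatives, shown after their values were seen, were present in all 4 libraries. The difference in change between the paralogs was not tested.

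Most other hair bundle genes were not called. Of 36 tested stereocilia genes, 2 were called lower and 0 higher (against 0.420% and 0.130% of all genes), and the median log2 fold change was -0.08 (0.14 without library 15). Of 18 tested mechanotransduction genes 0 were called by edgeR, with 7 at an unadjusted p under 0.05, 2 called by limma-voom and 3 by DESeq2, and their median was 0.80. *Tmc1*, a pore subunit of the transduction channel, had 403 and 399 CPM at P7 and 1302 and 898 CPM at P22 (edgeR log2 fold change 1.46 ± 0.96 SE, FDR = 0.498), and *Tmc2*, the subunit of immature bundles, had 22.9 and 4.94 CPM at P7 and 0 and 6.4 CPM at P22 (edgeR log2 fold change -2.11 ± 1.96 SE, FDR = 0.647). *Tmc1* was higher at P22 in 4 of 4 pairs while *Tmc2* overlapped between the ages, library f22 lying inside the P7 range. *Ush1c*, the scaffold harmonin of the tip link, had 93.9 and 141 CPM at P7 and 1726 and 482 CPM at P22 and just missed the threshold (edgeR log2 fold change 3.23 ± 0.62 SE, FDR = 0.0506), and *Loxhd1*, a repeat protein of stereocilia membranes, had 268 and 317 CPM at P7 and 1693 and 949.7 CPM at P22 (edgeR log2 fold change 2.18 ± 0.51 SE, FDR = 0.0993; limma-voom adjusted p = 0.0407). Some larger members, chosen after their values were seen, went the same way: *Myo15*, the myosin that carries elongation factors to the tips, had 724 and 553 CPM at P7 and 7602 and 3470.0 CPM at P22 (edgeR log2 fold change 3.12 ± 0.72 SE, FDR = 0.0943), and *Strc*, stereocilin of the links between stereocilia, had 699.8 and 674 CPM at P7 and 4185 and 1878 CPM at P22 (edgeR log2 fold change 2.14 ± 0.49 SE, FDR = 0.0931). *Ptprq*, a phosphatase of the bundle base, had 3849 and 3289 CPM at P7 and 1422 and 1364 CPM at P22 in the other direction (edgeR log2 fold change -1.36 ± 0.33 SE, FDR = 0.106, limma-voom adjusted p = 0.00561, DESeq2 adjusted p = 0.118). The cytoplasmic actins *Actb*, at 318 and 417 CPM at P7 and 44.5 and 75.8 CPM at P22, and *Actg1*, at 253 and 372 CPM at P7 and 69 and 59.9 CPM at P22, were also lower in value (edgeR FDR = 0.0566 and 0.0998).

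The largest rises were of genes nearly silent at P7. *Serpina1f*, of the serpin family, had 0 and 0.0273 CPM at P7 and 407 and 16.6 CPM at P22, so that the P22 libraries differed widely from each other. Its ratio of counts was 7370.0 (95% exact interval 1322 to 291156), with 1 count at P7 (edgeR FDR = 0.0474), and the call was held only without library f22 (FDR = 0.00998; without library m21, 0.627). *Sec16b*, a protein of endoplasmic reticulum exit sites, had 0 and 0.0546 CPM at P7 and 262 and 63 CPM at P22, a ratio of counts of 3285 (95% exact interval 909 to 27131) (edgeR FDR = 0.0188; without library m21, 0.108). *C1ql1* (mm9 chr11:102800578-102808002), a secreted C1q-like protein that acts at synapses in the cerebellum, had 0.336 and 0 CPM at P7 and 295 and 169 CPM at P22 (edgeR log2 fold change 10.64 ± 1.82 SE, FDR = 0.0474; without library m21, FDR = 0.187). Its 5 counts at P7 make it another gene seen almost only at P22, and it was at or near 0 in the SC, cHC and IHC libraries (0.101 and 0.0344 CPM in IHCs, 0 and 0 in cHCs). *Osbp2* (mm9 chr11:3603734-3763906), an oxysterol-binding protein, had 1.68 and 2.13 CPM at P7 and 1172 and 913 CPM at P22 (edgeR log2 fold change 9.09 ± 1.23 SE, FDR = 0.0174), and was called without each of the 4 libraries in turn.

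The others of the 12 largest rises had counts in both P7 libraries. *Mmd* had 33.8 and 47.7 CPM at P7 and 948 and 799 CPM at P22 (edgeR log2 fold change 4.42 ± 0.57 SE, FDR = 0.0142), with the 2 libraries of each age close together. *Gpx2*, a glutathione peroxidase, had 0.806 and 7.56 CPM at P7 and 332 and 436 CPM at P22 (edgeR log2 fold change 6.5 ± 0.95 SE, FDR = 0.0196), and *Ttc7*, a tetratricopeptide repeat protein, 41 and 9.85 CPM at P7 and 1045 and 545 CPM at P22 (edgeR log2 fold change 4.97 ± 0.88 SE, FDR = 0.044). *Cables1*, an adaptor of cyclin-dependent kinase 5, had 14 and 25.5 CPM at P7 and 807 and 289.7 CPM at P22 (edgeR log2 fold change 4.79 ± 0.81 SE, FDR = 0.044). In *Mmd*, *Gpx2* and *Ttc7* the ages did not overlap by a wide margin. *Fam19a3*, a small secreted protein, had 1.95 and 0.136 CPM at P7 and 362 and 90.5 CPM at P22 (edgeR log2 fold change 7.81 ± 1.39 SE, FDR = 0.044), *Sema7a*, a membrane-anchored semaphorin, 0.0671 and 0.136 CPM at P7 and 26.2 and 10.2 CPM at P22 (edgeR log2 fold change 7.35 ± 1.36 SE, FDR = 0.0461), and *Usp54*, of the ubiquitin peptidase family, 13.5 and 8.05 CPM at P7 and 321 and 138 CPM at P22 (edgeR log2 fold change 4.42 ± 0.83 SE, FDR = 0.0474). Of these 12 genes, 3 were still called without library m21, 12 without library f22, 4 without library 14 and 8 without library 15. Library m21 had the higher value of the P22 pair in 20 of the 22 genes called higher.

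The remaining 10 called rises, described after their values were seen apart from *Lmo7* and *Lbh*, included *Dst*, *Dytn* and *Utrn*. *Dst*, the spectraplakin dystonin, had 876 and 976 CPM at P7 and 7547 and 4738 CPM at P22 (edgeR log2 fold change 2.73 ± 0.43 SE, FDR = 0.0307). *Dytn*, dystrotelin, and *Utrn*, utrophin, both of the dystrophin family, had 558 and 469 CPM at P7 and 3754 and 2211 CPM at P22 and 65.8 and 53 CPM at P7 and 317 and 300.1 CPM at P22 (edgeR log2 fold changes 2.54 ± 0.45 and 2.38 ± 0.43 SE, FDR = 0.044 and 0.0461). Each of these 3 was called without library f22 and not without any other library of the 4. *Sorbs2*, an actin-binding adaptor, had 423 and 305 CPM at P7 and 6441 and 3289 CPM at P22 (edgeR log2 fold change 3.74 ± 0.53 SE, FDR = 0.0188), *Slk*, a kinase of the Ste20 family, 210.3 and 242 CPM at P7 and 3124 and 2437 CPM at P22 (edgeR log2 fold change 3.62 ± 0.48 SE, FDR = 0.0174), and *Lpin2*, a phosphatidate phosphatase, 313 and 369 CPM at P7 and 3702 and 2729 CPM at P22 (edgeR log2 fold change 3.24 ± 0.4 SE, FDR = 0.0114). With only the OHC libraries *Slk* kept its call (edgeR FDR = 0.046), and *Sorbs2* (FDR = 0.0625) and *Lpin2* (FDR = 0.0574) did not. *Celsr3*, a cadherin of planar polarity, had 26.4 and 25.2 CPM at P7 and 711 and 298 CPM at P22 and *Cdk14*, a cyclin-dependent kinase, 127 and 80.2 CPM at P7 and 871 and 626 CPM at P22 (edgeR FDR = 0.0454 and 0.044). Both were called without library f22 and in none of the other 3 fits that left 1 library out (*Celsr3* FDR = 0.151 without library m21, 0.159 without 14 and 0.117 without 15, and *Cdk14* FDR = 0.136, 0.246 and 0.101 in the same order).

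**Figure D3:**
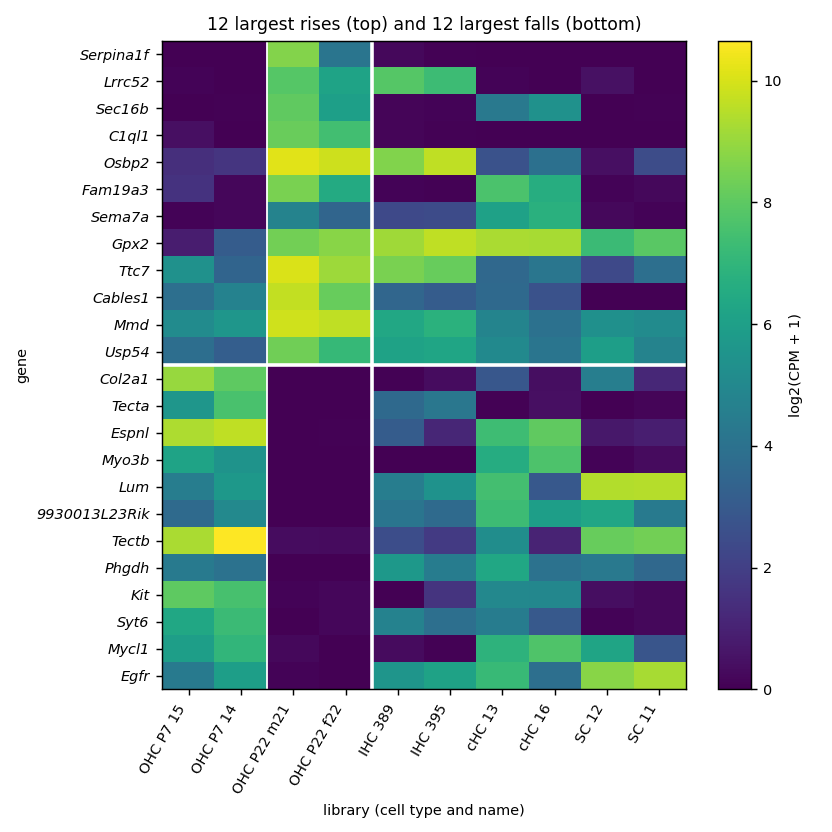
Levels of the 12 largest rises and the 12 largest falls, as log2(CPM + 1), in the 4 OHC libraries and the 6 IHC, cHC and SC libraries of the series. The rises are darker in the P7 columns than in the P22 columns, the falls are near 0 in both P22 columns, and many of the falls are bright in the SC or cHC columns.

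Several of the genes that fell most encode extracellular matrix. *Tecta* and *Tectb* encode the tectorins, the non-collagen proteins of the tectorial membrane that lies over the hair bundles. *Tecta* (mm9 chr9:42137702-42208012) had 47.9 and 193 CPM at P7 and 0 and 0 CPM at P22 and was at least 617-fold lower (edgeR FDR = 0.044). *Tectb* (mm9 chr19:55255223-55270803) had 624 and 1611 CPM at P7 and 0.265 and 0.253 CPM at P22, 9 counts in all at P22 (edgeR log2 fold change -12.06 ± 1.7 SE, FDR = 0.0188). Both were higher in library 14 than in library 15, and neither was called without library m21 (edgeR FDR = 0.137 and 0.0999). *Tecta* also lost its call without library f22 (FDR = 0.0552) or 14 (FDR = 0.135).

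Because the tectorins fell together, and to set them beside the first 2 of the largest rises, the RefSeq promoters of these 4 genes are shown (build GRCm38.p6, from 250 bases before to 50 after the first-listed start, 5′ to 3′). Capitals mark each CAGNTG or CANCTG, the same E-box on either strand, a core read by basic helix-loop-helix (bHLH) TFs such as *Atoh1*. *Tecta* is at chr9:42401641-42401940 on the minus strand, *Tectb* at chr19:55180476-55180775 on the plus strand, *Serpina1f* at chr12:103695480-103695779 on the minus strand and *Lrrc52* at chr1:167466731-167467030 on the minus strand.
Tecta: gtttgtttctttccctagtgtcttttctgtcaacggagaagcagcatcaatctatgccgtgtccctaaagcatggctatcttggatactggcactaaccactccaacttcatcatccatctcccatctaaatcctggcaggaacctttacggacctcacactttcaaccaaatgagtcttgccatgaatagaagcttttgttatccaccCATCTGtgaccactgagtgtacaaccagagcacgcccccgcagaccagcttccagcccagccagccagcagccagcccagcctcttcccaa
Tectb: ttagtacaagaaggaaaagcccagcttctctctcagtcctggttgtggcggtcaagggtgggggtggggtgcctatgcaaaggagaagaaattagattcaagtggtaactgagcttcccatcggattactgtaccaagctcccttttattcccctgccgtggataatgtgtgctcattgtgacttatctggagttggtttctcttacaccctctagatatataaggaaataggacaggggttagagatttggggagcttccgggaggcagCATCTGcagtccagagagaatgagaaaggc
Serpina1f: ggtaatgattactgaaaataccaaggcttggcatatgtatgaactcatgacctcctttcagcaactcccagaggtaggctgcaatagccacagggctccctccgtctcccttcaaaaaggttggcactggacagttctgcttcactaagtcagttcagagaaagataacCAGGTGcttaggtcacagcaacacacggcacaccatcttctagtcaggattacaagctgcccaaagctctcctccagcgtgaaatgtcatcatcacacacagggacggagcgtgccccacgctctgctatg
Lrrc52: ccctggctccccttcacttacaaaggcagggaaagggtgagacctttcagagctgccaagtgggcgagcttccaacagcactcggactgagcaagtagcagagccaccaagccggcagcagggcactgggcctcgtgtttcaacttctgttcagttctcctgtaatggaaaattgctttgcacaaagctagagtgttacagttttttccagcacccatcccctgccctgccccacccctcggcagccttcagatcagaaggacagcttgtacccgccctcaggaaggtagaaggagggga
The tectorin promoters each hold 1 match, as does *Serpina1f*, and *Lrrc52* holds 0. A match is a run of letters and not a measured site. Of all 27025 promoters of this length 51.1% hold one, against 13 of the 19 matched promoters of genes called higher (68.4%) and 26 of the 50 matched promoters of genes called lower (52.0%), and this difference was not tested.

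Among the collagens and laminins of the list, *Col2a1* and *Lamc1* were called lower. *Col2a1* (mm9 chr15:97806033-97835155), a fibrillar collagen of cartilage and of the tectorial membrane, had 517 and 256 CPM at P7 and 0 and 0 CPM at P22, at least 1977-fold lower (edgeR FDR = 0.0461; without library m21, 0.151, and without library f22, 0.0682). *Lamc1*, the laminin chain of most basement membranes, had 62.9 and 62.9 CPM at P7 and 0.353 and 0.716 CPM at P22 (edgeR log2 fold change -6.83 ± 0.85 SE, FDR = 0.0114). It was not called with only the OHC libraries (edgeR FDR = 0.101). *Lum*, the proteoglycan lumican, had 21.6 and 50.2 CPM at P7 and 0 and 0 CPM at P22, at least 184-fold lower (edgeR FDR = 0.044; without library m21, 0.137, and without library f22, 0.0643). Of 25 tested genes of the collagen, laminin and tectorial list, 4 were called lower and 0 higher (against 0.420% and 0.130% of all genes), and 13 stood apart downward by 2 log2 units or more (52.0%, against 6.26% of all genes) and 1 upward. The median log2 fold change of the list was -6.83, also with genes at 0 set to their bound, and lay between -8.55 and -4.73 under the alternatives. Over this list the summed level was 2797 and 4635.5 CPM at P7 and 564 and 327 CPM at P22.

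Markers of supporting cells were mostly lower in value at P22 too, and several matrix genes are among them. Of 28 supporting cell markers tested, 4 were called lower (*Tecta*, *Tectb*, *Lum* and *Jag1*) and 0 higher (against 0.420% and 0.130% of all genes), and 9 stood apart downward (32.1%, against 6.26% of all genes). The median log2 fold change of the markers was -4.91 (-4.70 with genes at 0 at their bound), and it was -2.46 without library 14 and -1.19 under a minimum of 10 counts in every library. *Jag1*, a Notch ligand of supporting cells, had 37.8 and 40.8 CPM at P7 and 0.0882 and 1.26 CPM at P22 (edgeR log2 fold change -5.77 ± 1.08 SE, FDR = 0.0474; without library m21, FDR = 0.125, and without library 14, 0.0527). Without library m21 the called markers were 0, without library f22 they were 2, without library 14 they were 2 and without library 15 they were 4. Summed over the list, the level was 1415 and 3538 CPM at P7 and 1068 and 1154 CPM at P22, against 11410.4 and 12626 CPM in the SC libraries. *Fbxo2*, which was higher at P22 in value (330.2 and 609 CPM at P7 and 942 and 1116 CPM at P22), made up most of the P22 sums. Without it, in a sum added after its values were seen, the level was 1085 and 2929 CPM at P7, 126 and 37.4 CPM at P22 and 8453 and 9214 CPM in the SC libraries, so that library 14 held the most of the 4 and the ages lay far apart. Of the 4 called markers, *Tecta* had 0 and 0.106 CPM in the SC libraries, which came from P26 and P27. The other 3 were high there, *Tectb* with 292 and 331 CPM, *Lum* with 684 and 716 CPM and *Jag1* with 136 and 377 CPM. *Sparc*, chosen after its values were seen, had 198 and 1447 CPM at P7 and 44.4 and 10.2 CPM at P22, and *Otog* 14.8 and 426 CPM at P7 and 7.76 and 5.6 CPM at P22, both far higher in library 14 than in library 15. The part of supporting cell RNA in the falls was not tested.

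Beyond the matrix, the largest falls included receptors and metabolic enzymes. *Kit*, a receptor tyrosine kinase, had 259.6 and 187 CPM at P7 and 0.0882 and 0.126 CPM at P22 (edgeR log2 fold change -10.92 ± 2.0 SE, FDR = 0.0461; without library m21, FDR = 0.2, and without library f22, 0.0763). *Egfr*, the epidermal growth factor receptor, had 19.5 and 62.4 CPM at P7 and 0.0882 and 0 CPM at P22, a ratio of counts of 1756 (95% exact interval 315 to 69383) (edgeR FDR = 0.0307; without library m21, 0.0839). Both were close to absent at P22. *Syt6*, a synaptotagmin, had 79.6 and 150.4 CPM at P7 and 0 and 0.126 CPM at P22, a ratio of counts of 1519.5 (95% exact interval 519.7 to 7370.3) (edgeR FDR = 0.0264; without library m21, 0.101, and without library 14, 0.0684). *Phgdh*, the first enzyme of serine synthesis, had 19.8 and 15.3 CPM at P7 and 0 and 0 CPM at P22, at least 89.8-fold lower (edgeR FDR = 0.0454; without library m21, 0.15, and without library f22, 0.067), and *Psat1*, the next enzyme, which was singled out after its values were seen, had 3.83 and 12 CPM at P7 and 0.176 and 0 CPM at P22 (edgeR log2 fold change -6.84 ± 1.16 SE, FDR = 0.0399). *Psph*, the last enzyme of that route, was not called and overlapped between the ages, with 5.84 and 10.8 CPM at P7 and 0.0882 and 8.51 CPM at P22 (edgeR FDR = 0.76). *9930013L23Rik*, a gene known in the files by its clone name, had 11.8 and 31.3 CPM at P7 and 0 and 0 CPM at P22, at least 110.3-fold lower (edgeR FDR = 0.0312). Of the 12 largest falls 1 was still called without library m21, 6 without library f22, 10 without library 14 and 12 without library 15.

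Several other called falls were chosen for mention after their values were seen. *Ighm*, the immunoglobulin mu heavy chain, was among the highest of all called genes at P7, with 4076 and 4549 CPM at P7 and 0.0882 and 18.6 CPM at P22 (edgeR log2 fold change -8.84 ± 1.67 SE, FDR = 0.0474). Its call was lost with RLE size factors (edgeR FDR = 0.0533), library totals alone (FDR = 0.064) and only the OHC libraries (FDR = 0.136). Which part of the *Ighm* locus the reads came from was not examined. It was at 0.0674 and 0 CPM in IHCs, 3.15 and 1.88 CPM in cHCs and 2.53 and 2.1 CPM in SCs. The immune markers summed to 17.3 and 25.8 CPM at P7 and 0.176 and 8.76 CPM at P22, with 11, 11, 14 and 11 of the 15 listed genes at 0 in libraries 15, 14, m21 and f22. *Cdh1*, E-cadherin, had 73.2 and 112 CPM at P7 and 0.353 and 0.716 CPM at P22 (edgeR log2 fold change -7.38 ± 0.68 SE, FDR = 0.00225), *Cat*, catalase, 83.6 and 113 CPM at P7 and 0.265 and 0.126 CPM at P22 (edgeR log2 fold change -9.01 ± 1.07 SE, FDR = 0.01), and *Crim1*, a membrane protein that binds bone morphogenetic proteins, 114 and 89.4 CPM at P7 and 0.353 and 0.295 CPM at P22 (edgeR log2 fold change -8.29 ± 0.86 SE, FDR = 0.00345). With only the OHC libraries *Cat* and *Crim1* kept their calls (edgeR FDR = 0.0488 for each) and *Cdh1* did not (FDR = 0.0667). *Srrm4*, a splicing regulator of neurons and hair cells, had 75.4 and 102 CPM at P7 and 0.617 and 0.295 CPM at P22 (edgeR log2 fold change -7.64 ± 1.36 SE, FDR = 0.044), and *Mtap1b*, a microtubule-associated protein of growing neurites, 1793 and 1858 CPM at P7 and 188 and 111 CPM at P22 (edgeR log2 fold change -3.61 ± 0.59 SE, FDR = 0.0335). *Atp1b1*, a subunit of the sodium pump, had 557 and 499 CPM at P7 and 42.2 and 75.2 CPM at P22 (edgeR log2 fold change -3.17 ± 0.54 SE, FDR = 0.0412). *Eef1a1*, a translation elongation factor, had 1024 and 1148 CPM at P7 and 185 and 261 CPM at P22 (edgeR log2 fold change -2.29 ± 0.42 SE, FDR = 0.0461). Without library m21 none of these last 4 was called (edgeR FDR = 0.151, 0.0793, 0.151 and 0.177), *Srrm4* also lost its call without library f22 (FDR = 0.0771) and *Eef1a1* without library 14 (FDR = 0.12) and 15 (FDR = 0.0619). The called *Gm8759* and *Rpl10a-ps1* are uncertain, since their reads may come from near-identical copies.

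The calcium buffers differed in opposite directions in value. *Calb1*, calbindin, had 2201 and 2139 CPM at P7 and 0.529 and 23.9 CPM at P22, with the P7 libraries close together and both P22 libraries far below (edgeR log2 fold change -7.46 ± 1.52 SE, FDR = 0.0636; limma-voom adjusted p = 0.0288; DESeq2 adjusted p = 1.59e-07). *Ocm* (mm9 chr5:144780673-144787539), oncomodulin, the main calcium buffer of mature OHCs, had 3400.2 and 3160.3 CPM at P7 and 7562 and 9278 CPM at P22 (edgeR log2 fold change 1.36 ± 0.57 SE, FDR = 0.332, limma-voom adjusted p = 0.000872, DESeq2 adjusted p = 0.218). Per kilobase of exon, the mean level of *Calb1* was 448 CPM at P7 and 2.52 CPM at P22, and that of *Ocm* 4475 and 11487 CPM. *Calb2*, calretinin, had 142 and 160.1 CPM at P7 and 43.6 and 44.1 CPM at P22 (edgeR log2 fold change -1.78 ± 0.44 SE, FDR = 0.11), and *Pvalb*, parvalbumin, had 229 and 204 CPM at P7 and 91.4 and 153 CPM at P22 (edgeR log2 fold change -0.82 ± 0.52 SE, FDR = 0.479). *Calb1*, *Calb2*, *Pvalb* and *Ocm* each separated the ages in 4 of 4 pairs, and none passed the test by edgeR. *Itpr1*, a calcium release channel, had 34.1 and 41.5 CPM at P7 and 2.12 and 6.61 CPM at P22 (edgeR log2 fold change -3.1 ± 0.8 SE, FDR = 0.129). Of 29 tested genes of calcium handling 0 were called by edgeR, 11 had an unadjusted p under 0.05, limma-voom called 1 higher and 3 lower, DESeq2 called 6 lower, and 5 stood apart downward (17.2%, against 6.26% of all genes) and 0 upward.

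At the ribbon synapse, 2 of 35 tested genes were called, both lower (against 0.420% of all genes called lower), while 19 of the 35 had a fitted difference above 0 and 16 below. Upward 5 stood apart (14.3%, against 3.93% of all genes) and downward 3 (8.57%, against 6.26%), and the median log2 fold change was 0.55 but -0.40 without library m21. *Cabp2*, a calcium-binding protein that acts on the calcium channel of hair cells, was one that stood apart upward, with 11.1 and 22.7 CPM at P7 and 370.0 and 302 CPM at P22 (edgeR FDR = 0.296), and it was chosen after its values were seen. *Nrxn3*, a presynaptic adhesion protein, had 366 and 537 CPM at P7 and 1.85 and 0.926 CPM at P22 (edgeR log2 fold change -8.36 ± 1.49 SE, FDR = 0.044), and *Rims2*, a scaffold of the active zone that helps to set calcium channel number, had 71.4 and 142 CPM at P7 and 0.882 and 4.42 CPM at P22 (edgeR log2 fold change -5.31 ± 0.98 SE, FDR = 0.0461). Both calls were lost without library m21 (edgeR FDR = 0.165 and 0.165). *Nrxn3* also lost its call without library f22 (FDR = 0.0772) and *Rims2* without library 14 (FDR = 0.075). *Otof*, the calcium sensor of exocytosis in hair cells, had 1036 and 1145 CPM at P7 and 338 and 490.2 CPM at P22, lower in value in 4 of 4 pairs (edgeR log2 fold change -1.4 ± 0.4 SE, FDR = 0.167). *Slc17a8*, the vesicular glutamate transporter of IHCs, had 75.5 and 26.3 CPM at P7 and 52.5 and 35.4 CPM at P22, with overlapping ages (edgeR log2 fold change -0.21 ± 1.14 SE, FDR = 0.975). Among the 8 tested IHC markers 1 was called, *Slc7a14*, a transporter-like protein, with 100.4 and 113 CPM at P7 and 6.52 and 4.8 CPM at P22 (edgeR log2 fold change -4.24 ± 0.6 SE, FDR = 0.0188; without library m21, FDR = 0.0742). The summed IHC markers were 1419 and 1487 CPM at P7, 597 and 580.4 CPM at P22 and 10931 and 10543 CPM in IHCs, and *Otof* made up most of the OHC values.

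Among TF genes the calls held 6 falls and 1 rise. Of 444 TF genes that the study tabulated, chosen by the study on these libraries among genes above a set level and so no independent evidence, 1 was called higher and 6 lower. Over all 16891 genes, too, falls outnumbered rises (71, or 0.420%, against 22, or 0.130%). *Nhlh1*, a bHLH factor of differentiating hair cells and neurons, had 113 and 114 CPM at P7 and 0 and 0.253 CPM at P22 (edgeR log2 fold change -9.53 ± 1.29 SE, FDR = 0.0188), 6 counts at P22 in all. It was not called with only the OHC libraries (edgeR FDR = 0.0667). *Mycl1*, of the Myc family, had 62.2 and 129 CPM at P7 and 0.176 and 0 CPM at P22, a ratio of counts of 1930.2 (95% exact interval 534 to 15942) (edgeR FDR = 0.0454; without library m21, 0.101, and without library f22, 0.0644). *Bhlhe40*, a bHLH repressor, had 375 and 477 CPM at P7 and 4.5 and 0.842 CPM at P22 (edgeR log2 fold change -7.34 ± 0.98 SE, FDR = 0.0174), and was not called with only the OHC libraries (FDR = 0.0574). The other 3 called falls were *Litaf*, at 56.7 and 53.3 CPM at P7 and 0.0882 and 0.379 CPM at P22 (edgeR log2 fold change -7.75 ± 1.42 SE, FDR = 0.0461), *Zfhx4*, at 22.1 and 34.5 CPM at P7 and 1.06 and 0.463 CPM at P22 (edgeR log2 fold change -5.24 ± 0.99 SE, FDR = 0.0474), and *Tulp4*, at 534 and 621 CPM at P7 and 77.4 and 131 CPM at P22 (edgeR log2 fold change -2.47 ± 0.47 SE, FDR = 0.0484). *Lbh*, a small regulator of transcription, was the call upward, with 86.9 and 89 CPM at P7 and 1589 and 1834 CPM at P22 (edgeR log2 fold change 4.28 ± 0.68 SE, FDR = 0.0307; limma-voom adjusted p = 0.00134), and it was called without library f22 and not without library m21 (FDR = 0.0614), 14 (FDR = 0.0769) or 15 (FDR = 0.0619). Of these 7 genes 2 were called without library m21, 4 without library f22, 4 without library 14 and 5 without library 15.

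The master regulators of hair cells followed no common course. *Atoh1*, the bHLH factor that starts hair cell differentiation, had 2.15 and 6.44 CPM at P7 and 0 and 0 CPM at P22, at least 22-fold lower (edgeR FDR = 0.0803, limma-voom adjusted p = 0.563, DESeq2 adjusted p = 0.000228). It was low already at P7 and had no count at P22. *Gfi1*, a zinc finger repressor needed for hair cell survival, had 125 and 91.8 CPM at P7 and 203 and 440.4 CPM at P22 (edgeR log2 fold change 1.57 ± 0.9 SE, FDR = 0.442). *Isl1*, a LIM homeodomain factor singled out after its values were seen, had 18.6 and 48.9 CPM at P7 and 281 and 236 CPM at P22 (edgeR log2 fold change 2.94 ± 0.74 SE, FDR = 0.119, limma-voom adjusted p = 0.104, DESeq2 adjusted p = 0.00182). Of 44 tested hair cell TF genes 1 was called lower and 0 higher, with a median log2 fold change of -0.07 (-0.054 with genes at 0 at their bound, and 0.074 by DESeq2).

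**Figure D4:**
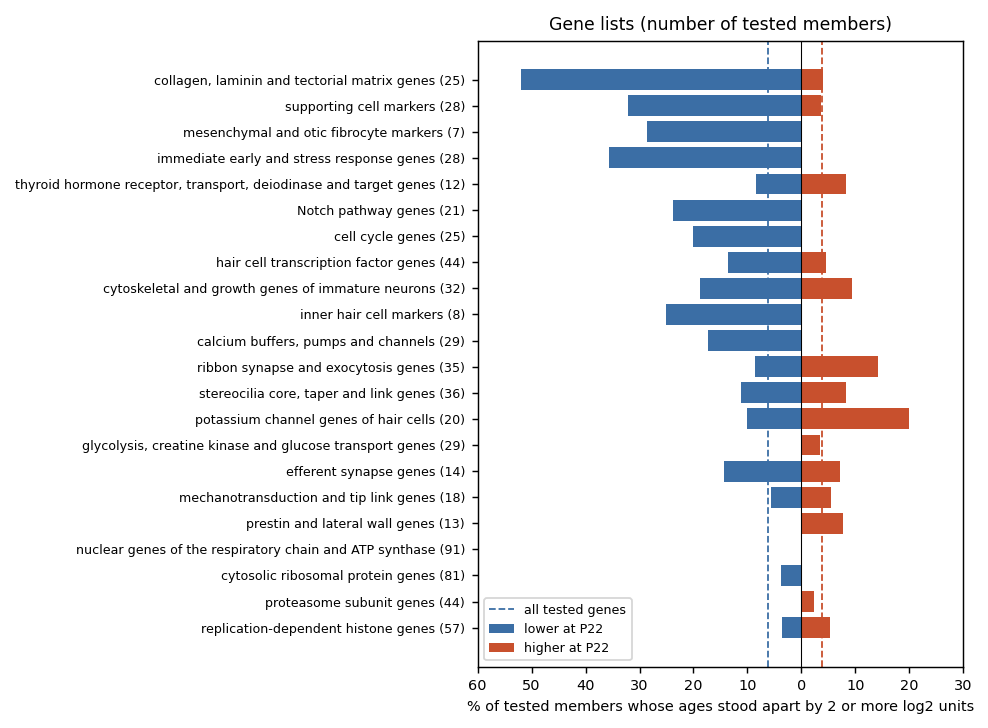
Share of each gene list's tested members for which both P22 libraries lay at least 2 log2 units below (blue, left) or above (orange, right) both P7 libraries. Dashed lines mark the share over all tested genes (6.26% below and 3.93% above), and the longest bar is that of matrix genes (52.0% below).

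Among the other lists, immediate early genes were lower in value at P22. Of 28 tested 0 were called by edgeR or limma-voom (10 had an unadjusted edgeR p under 0.05), DESeq2 called 9 lower, 10 stood apart downward (35.7%, against 6.26% of all genes) and 0 upward, and the median log2 fold change was -2.90 (-2.32 with genes at 0 at their bound, and -0.82 under a minimum of 10 counts in every library). *Fos* had 12.3 and 18.1 CPM at P7 and 0.793 and 0.253 CPM at P22 (edgeR log2 fold change -4.92 ± 1.14 SE, FDR = 0.0943), *Jun* 57.4 and 23.3 CPM at P7 and 4.5 and 4.97 CPM at P22 (edgeR log2 fold change -3.09 ± 0.74 SE, FDR = 0.105) and *Ier2* 3.42 and 6.6 CPM at P7 and 0 and 0.0421 CPM at P22, a ratio of counts of 199 (95% exact interval 35.5 to 7903) (edgeR FDR = 0.0736). All 3, which cells induce within minutes of a stimulus, were above both P22 libraries in both P7 libraries. In the Notch pathway 1 of 21 tested genes was called (*Jag1*) and 5 stood apart downward (23.8%), with a median of -2.20 that became 0.20 without library 14. Of 25 tested cell cycle genes 1 was called lower, *Cdkn1a*, an inhibitor of cyclin-dependent kinases, with 48.9 and 142 CPM at P7 and 4.67 and 2.15 CPM at P22 (edgeR log2 fold change -4.82 ± 0.88 SE, FDR = 0.0461), whose call was held only without library 15 (FDR = 0.0187; without library m21, 0.135, without library f22, 0.0765, and without library 14, 0.134). None of 32 tested genes of immature neurons was called by edgeR or limma-voom (8 had an unadjusted edgeR p under 0.05), DESeq2 called 7 lower and 1 higher, and *Tubb2b*, a tubulin, had 29.8 and 38.4 CPM at P7 and 1.5 and 0.758 CPM at P22 (edgeR log2 fold change -4.93 ± 0.96 SE, FDR = 0.0528). Of 12 tested thyroid hormone genes 0 were called by edgeR or limma-voom, and 2 had an unadjusted edgeR p under 0.05 (against 2340 of 16891 over all genes). DESeq2 called 1 higher (against 685 of 16891), *Bcl6*, with 0.0671 and 0.518 CPM at P7 and 8.11 and 20.1 CPM at P22 (edgeR log2 fold change 5.46 ± 1.25 SE, FDR = 0.0919). *Dio2*, the deiodinase that activates the hormone, had 56.7 and 0 CPM at P7 and 0.0882 and 0 CPM at P22, so its P7 level came from library 15.

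Genes of protein synthesis and respiration were mostly lower in value at P22, by small steps per gene. Of 81 tested genes of cytosolic ribosomal proteins 78 had a fitted difference below 0, against 8577 of 16891 over all genes, and their median log2 fold change was -1.41, against -0.04. None was called by edgeR (45 with an unadjusted p under 0.05) or limma-voom, and DESeq2 called 20 lower. Summed over the list, the level was 15361 and 14936 CPM at P7 and 5683 and 6380.5 CPM at P22, with no overlap. Of 91 tested nuclear genes of the respiratory chain and ATP synthase 75 were below 0, with a median of -1.07 and summed levels of 12672 and 12364 CPM at P7 and 5945 and 5922.5 CPM at P22. edgeR called 0 of these (23 with an unadjusted p under 0.05), limma-voom 1 lower and DESeq2 11 lower. Both medians kept their sign under every scaling and without each of the 4 libraries in turn, between -1.76 and -1.28 for the ribosomal and between -1.33 and -0.90 for the respiratory genes. With 2 libraries against 2 the exact two-sided permutation test of a summed level cannot go below p = 0.333, the value for each of these lists. IHC libraries, from the later series of library numbers, had 7827 and 9252 CPM of the ribosomal list. Their respiratory sums were 5329 and 6359 CPM. Among libraries with earlier numbers, ribosomal genes reached 19402 and 30246 CPM (SC) and 14224 and 15518.5 CPM (cHC). Respiratory genes there summed to only 6109 and 7196 CPM (SC) and 4869 and 5322 CPM (cHC), near the P22 values. The part of the library series in either list was not tested.

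**Figure D5:**
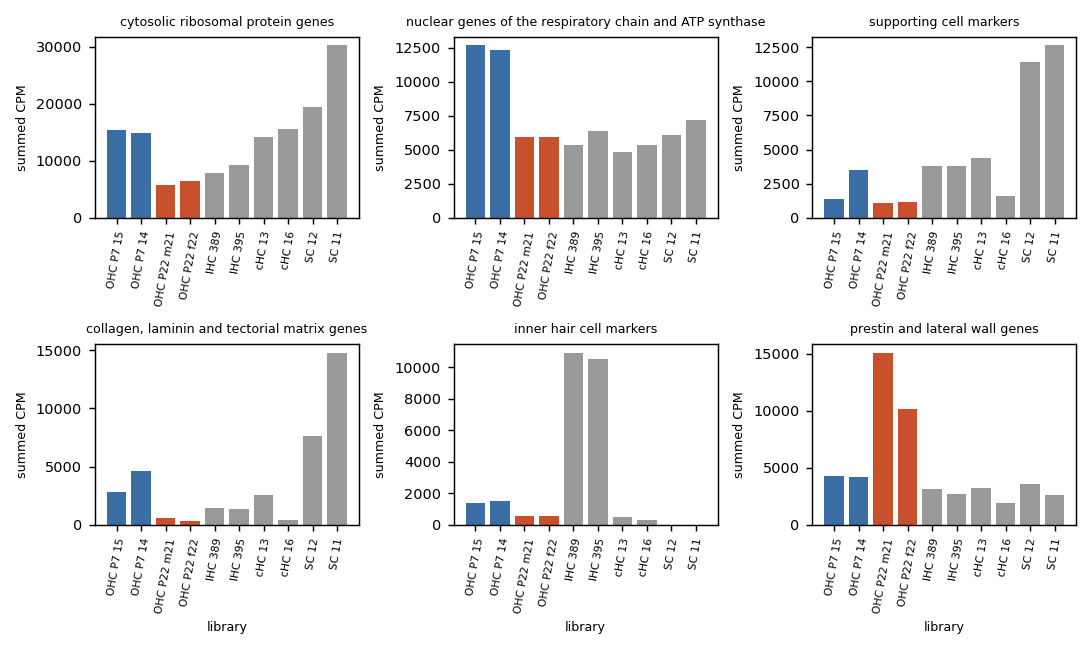
Summed CPM of 6 gene lists in each of the 10 libraries, with OHCs (P7) in blue, OHCs (P22) in orange and the other cell types in grey. Ribosomal and respiratory genes were lower at P22 than at P7, and supporting cell markers were highest in the SC libraries.

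Transcript length and nuclear RNA moved with age as well. Over 5 bins of genes by exon length, the median log2 fold change was -0.19, -0.20, -0.08, 0 and 0.09 from the shortest to the longest. The genes called higher had a median exon length of 6230 bases and those called lower 4492, against 3221 over all genes tested. *Malat1*, a long RNA kept in the nucleus, had 12272 and 10969 CPM at P7 and 45637 and 24533 CPM at P22 (edgeR log2 fold change 1.59 ± 0.41 SE, FDR = 0.123). With the larger share of reads outside genes at P22, these values moved with the age groups, and their part in the results was not tested.

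The mitochondrial ribosomal RNAs, among the most abundant genes of both ages, and *mt-Co1*, among those of P7, followed the libraries more than the ages. *mt-Rnr2* had 212190.0 and 183043 CPM at P7 and 386115 and 97881 CPM at P22 (edgeR log2 fold change 0.29 ± 0.44 SE, FDR = 0.795), *mt-Rnr1* 57984 and 60818 CPM at P7 and 190049.8 and 44973 CPM at P22 (edgeR log2 fold change 0.98 ± 0.47 SE, FDR = 0.38), and *mt-Co1*, a subunit of cytochrome oxidase, 13635 and 12036 CPM at P7 and 27496 and 6852 CPM at P22 (edgeR log2 fold change 0.42 ± 0.48 SE, FDR = 0.721). In each of them library m21 was the highest and library f22 the lowest of the 4, so the sign of the fitted difference depended on library m21, as it became negative without that library. With the mitochondrial genes left out, an alternative added after seeing the data, 25 genes were higher and 70 lower at P22. Energy genes of the cytosol showed 0 calls by edgeR among 29 tested (6 at an unadjusted p under 0.05), 1 higher by limma-voom and 1 in each direction by DESeq2, and *Ckmt1*, the mitochondrial creatine kinase, had 210.3 and 160.3 CPM at P7 and 1292 and 744 CPM at P22 (edgeR log2 fold change 2.46 ± 0.86 SE, FDR = 0.26; limma-voom adjusted p = 0.0376).

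Of 44 tested proteasome genes 0 were called by edgeR, limma-voom or DESeq2 (2 at an unadjusted edgeR p under 0.05), with a median log2 fold change of -0.22 (-0.99 without library f22, where that of all genes was -0.63). Of 57 tested histone genes 0 were called by edgeR or limma-voom (3 at an unadjusted edgeR p under 0.05) and 2 lower by DESeq2, with a median of -0.43 that became 0.64 without library 14. Of 16 tested genes of the mitochondrial genome 0 were called by edgeR or DESeq2 (0 at an unadjusted edgeR p under 0.05) and 2 by limma-voom, with a median of 0.14 that ran from -1.18 without library m21 to 0.81 without library f22.

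Markers of the remaining cell types were mostly low. The red blood cell markers summed to 1.14 and 0.846 CPM at P7 and 28.5 and 7.16 CPM at P22, endothelial markers to 2.62 and 0.164 CPM at P7 and 0.529 and 12.2 CPM at P22, and mesenchymal markers to 448 and 75.2 CPM at P7 and 24.2 and 20.6 CPM at P22. Schwann cell markers summed to 23.2 and 35.8 CPM at P7 and 113 and 25 CPM at P22. Spiral ganglion neuron markers summed to 942 and 1044 CPM at P7 and 739.5 and 499 CPM at P22, of which *Gata3* and *Snap25*, which hair cells also express, made up much. Of these 5 lists 1 gene was called, *Lum* of the mesenchymal list. The collagen genes *Col1a2* and *Col3a1* had 223 and 119 CPM in library 15 and 0 in library 14, so mesenchymal markers were highest in library 15 and supporting cell markers in library 14. The part of either in the falls was not tested.

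Set beside the other cell types, 18 of the 22 genes called higher had their highest mean in OHCs (P22), and 18 of the 71 called lower had it in OHCs (P7). Both IHC libraries were above 1 CPM for 18 of the 22 genes called higher and 60 of the 71 called lower. Both cHC libraries were above 1 CPM for 19 of the 22 and 69 of the 71. For 35 of the 71 genes called lower, the SC mean was above all 4 OHC libraries. These counts were not tested. The genes were chosen by their levels in these OHC libraries, which partly fixes where their highest mean falls. No share over all tested genes is given for any of these counts, so they cannot be set against a background.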

How the data were processed

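Total RNA of handpicked cells was amplified (Ovation RNA-Seq System V2), and reads were trimmed with Cutadapt, mapped to mm9 with STAR and then BWA and counted with HTSeq; whether strand was used is not given in the sources used here. The authors deposited raw counts per gene symbol for 34590 genes, without normalization, in 10 libraries, 2 of each of 5 cell types. Each count file was assigned to the sample named in its file name. A fixed ratio to the CPM of the same library in the study's table was used as a check on this assignment.

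Differences between OHCs (P22) and OHCs (P7) were tested two-sided with edgeR 4.0.16 (R 4.3.3): TMM, filterByExpr and quasi-likelihood F-tests, with all 10 libraries in 1 model, and Benjamini-Hochberg adjustment over 16891 genes. The SE was the log2 fold change divided by the square root of F. Summed levels were compared by exact permutation. Alternatives were limma-voom (limma 3.58.1), DESeq2 1.42.0, other scalings and filters, the OHC libraries alone, and each library left out. The study calls the libraries of a group biological duplicates, and the number of animals behind each is not given in the sources used here. 1 count was worth 0.0268 to 0.0666 CPM before scaling, and intervals and floors (3 counts per library) cover counting error only.

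The members and gene lists were chosen with earlier results of these data known. Named genes were the 12 largest called rises and falls, the called members of each list or else the 3 with the smallest p, a fixed set of OHC genes, the most abundant genes and the called TF genes. Coordinates are from GENCODE vM1 (mm9). Tests were tried on simulated counts. The check in that trial used a dispersion set below the common dispersion of the data, so it is no support for the calls. A gene of the fixed OHC set is not reported here.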

Additional observations from a re-analysis of the deposited data

How the results depend on the processing

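The higher and lower counts (22 and 71) became 685 and 955 with DESeq2, 52 and 63 under a minimum of 10 counts per library, 57 and 53 with limma-voom, 297 and 547 with no filter, 12 and 11 with only the OHC libraries, 15 and 39 with RLE size factors, 15 and 65 with library totals alone (which moved the median of all genes to -0.22 log2 units) and 0 and 0 with each file taken for the record it is attached to (1596 genes at an unadjusted edgeR p under 0.05). With 1 library left out they ranged from 6 to 96 and from 16 to 175, and the lone library was then assumed to vary like the other groups. The genes that stood apart (663 and 1058) were 1476 and 2072 at a gap of 1 log2 unit and 336 and 619 at a gap of 3. All 93 called genes kept their direction in every alternative fit that tested them and took files by name, and 92 did with files as attached to the records, where *Sema7a* turned to -1.56 log2 units. These fits used the same counts that chose the 93 genes, so a kept direction is no separate support. Of the 93 genes, 93 were called by DESeq2, 35 by limma-voom and 15 with only the OHC libraries. The cause of these differences was not tested.

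With files taken by name, signs turned only for genes that edgeR did not call. With library totals alone the log2 fold change was -0.15 for *Ikzf2*, -0.041 for *Myo6*, -0.17 for *Pou4f3*, -0.10 for *mt-Co1* and -0.23 for *mt-Rnr2*. With limma-voom it was 0.12 for *Slc17a8*, -0.43 for *mt-Co1* and -0.44 for *mt-Rnr1* (limma-voom adjusted p = 6.34e-14, DESeq2 adjusted p = 0.355). It was -0.027 for *Ikzf2* under the minimum of 10 counts and -0.016 for *Pou4f3* with no filter. With 1 library left out, the log2 fold change lay between -7.40 and 3.07 for *Cd68*, between -0.11 and 1.47 for *Chrna9*, between -12.61 and 3.28 for *Dio2*, between -10.22 and 6.28 for *Fcer1g*, between -4.40 and 6.54 for *Hba-a2*, between -0.47 and 7.95 for *Mbp*, between -0.023 and 0.28 for *Myo6*, between -0.006 and 0.66 for *Myo7a*, between -0.099 and 0.13 for *Pou4f3*, between -6.61 and 3.80 for *Prox1*, between -0.76 and 0.73 for *Slc17a8*, between -0.89 and 1.09 for *mt-Co1*, between -0.39 and 1.67 for *mt-Rnr1* and between -0.999 and 0.96 for *mt-Rnr2*. Without library m21, *mt-Rnr2* passed the test downward (edgeR FDR = 0.0134). The cause was not tested. No paired analysis was possible because the groups share no library number.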
